A study of Danio rerio with 16 samples.

Results

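The lysosome digests what cells take up and what autophagy delivers, and it exports the products, sterols among them. Its lumen is acidified by the vacuolar ATPase, a rotary proton pump with a membrane sector (V0) that carries the protons and a peripheral sector (V1) that hydrolyses ATP. Cholesterol freed inside the lumen is handed by the soluble protein Npc2 to the membrane protein Npc1 and leaves the organelle, and the transcription factors TFEB and TFE3 of the MiT family drive many lysosomal genes in mammalian cells. In zebrafish embryos the yolk is the lipid store, and the same proton pump also works in the plasma membrane of acid-secreting skin ionocytes, so transcripts of its subunits in whole embryos are not from lysosomes alone.

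The genes were chosen by symbol and level. Symbols in the deposited table were taken if they began, in lower case, with atp6v, atp6ap, lamp and a digit, mcoln, npc1, npc2, psap, tpp1, neu1, glb1, tfeb, tfe3, gns, hexa or hexb. They had to reach 1 CPM, a count scaled to the library total, in at least 4 of the 16 libraries. Of 36109 symbols 48 matched and 45 passed, and these 45 reached 1 CPM in all 16 libraries. The 3 that did not pass were the V0 gene atp6v0e1 with 0 counts in every library, the V1 gene atp6v1c2 with at most 12 counts in any library, and the mucolipin gene mcoln2, whose highest level was 0.98 CPM. By role the 45 comprised 8 genes of the V0 sector, 12 of the V1 sector, 5 for accessory proteins of the pump, 3 for the membrane glycoproteins Lamp1 and Lamp2, 3 for mucolipin calcium channels, 2 for sterol export, 9 for hydrolases and their activators and 3 for MiT factors. All 45 entered the tests.

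Whole zebrafish embryos were sequenced in 4 groups of 4 libraries. Siblings at 34 and 48 hours post-fertilisation (hpf) were labelled sib and untreated, without an allele being named. Embryos labelled hnf4a,hnf4b knockout, made with CRISPR/Cas9, were taken at the same stages. Hnf4 proteins are nuclear receptors of liver, gut and the yolk syncytial layer, and the series title places the study in yolk lipid mobilisation and growth. The labels name the stage as the batch, so that stage and batch cannot be told apart, and they do not say whether replicates came from separate clutches. The p-values therefore measure the spread between these samples, which may be technical. In bulk samples fewer cells of a type and less RNA per cell cannot be told apart.

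Total counts per library lay between 34588058 and 43194625, and the 45 genes took 0.309% ± 0.014 of them in siblings and 0.305% ± 0.035 in knockouts at 34 hpf (SD, n = 4 each), and 0.264% ± 0.0063 and 0.274% ± 0.020 at 48 hpf. Transcripts of the targeted genes were still counted in the knockouts. For hnf4a the levels were 10.8 to 14.99 CPM in siblings and 7.08 to 18.4 CPM in knockouts at 34 hpf, and 9.46 to 15.9 against 6.04 to 13.4 CPM at 48 hpf. For hnf4b they were 1.66 to 8.50 against 0.92 to 3.2 CPM and 0.99 to 3.50 against 0.94 to 1.99 CPM. None of these 4 comparisons passed the test, so the transcript levels do not check the genotype labels. The knockout libraries at 34 hpf differed most among themselves. The summed level of their 45 genes ran from 2456 CPM in replicate 1 to 3690 CPM in replicate 4. The 4 siblings lay at 3113 to 3406 CPM. Part of this gap comes from the TMM scaling factors, at 1.06 for knockout replicate 1 and 0.892 for knockout replicate 4. As an unscaled share of counts, knockout replicate 4 (0.3291%) lay within the sibling range of 0.2997% to 0.3292% and below knockout replicate 2 (0.3355%). Knockout replicate 1 (0.2601%) lay below all 4 siblings on both scales.

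Which lysosomal genes the double knockout changed at 34 hpf was asked first. Of the 45 genes 4 rose and none was called lower, that is 8.89% of the members, beside 9.30% of all 24084 genes tested (4.09% higher and 5.21% lower), so the share lies near the background. Of all calls 44.0% were higher, and 56.1% with upper quartile scaling. The 4 were the hydrolase genes tpp1, gnsb and gnsa and the channel gene mcoln1b. A gene was called at an adjusted p below 0.05 in edgeR's quasi-likelihood test, fitted over all 16 libraries and adjusted over all genes tested by the Benjamini-Hochberg method. For the lower direction 5 genes were past an unadjusted p of 0.05, DESeq2 and limma-voom called 0, and a fit with the replicate number as a block called 2. The median log2 fold change of the 45 genes was -0.0016, beside 0.014 over all genes. Their median absolute change was 0.12 log2 units and that of all genes 0.22. The 2 sets were not matched for level: a filter of 1 CPM in at least 4 libraries kept 20445 genes.

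At 48 hpf the members called were 3 higher (tpp1, gnsb and the membrane glycoprotein gene lamp1a) and 2 lower (the V0 gene atp6v0a1b and the accessory gene atp6ap1la). This is 11.1% of the 45, beside 10% of all genes tested (4.76% higher and 5.28% lower), again near the background. The median log2 fold change was -0.036 over the 45 genes and 0.00079 over all genes, and the median absolute change 0.13 and 0.22, again without matching for level. No member passed the test of the difference between the knockout effects of the stages, in which edgeR called 0.203% of all genes (0.0872% higher and 0.116% lower). At an unadjusted p below 0.05 the difference was positive for 1 member and negative for 2, and DESeq2, limma-voom and the replicate block called 0. A gene called at one stage and not at the other is therefore not shown to differ between them.

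**Figure D1:**
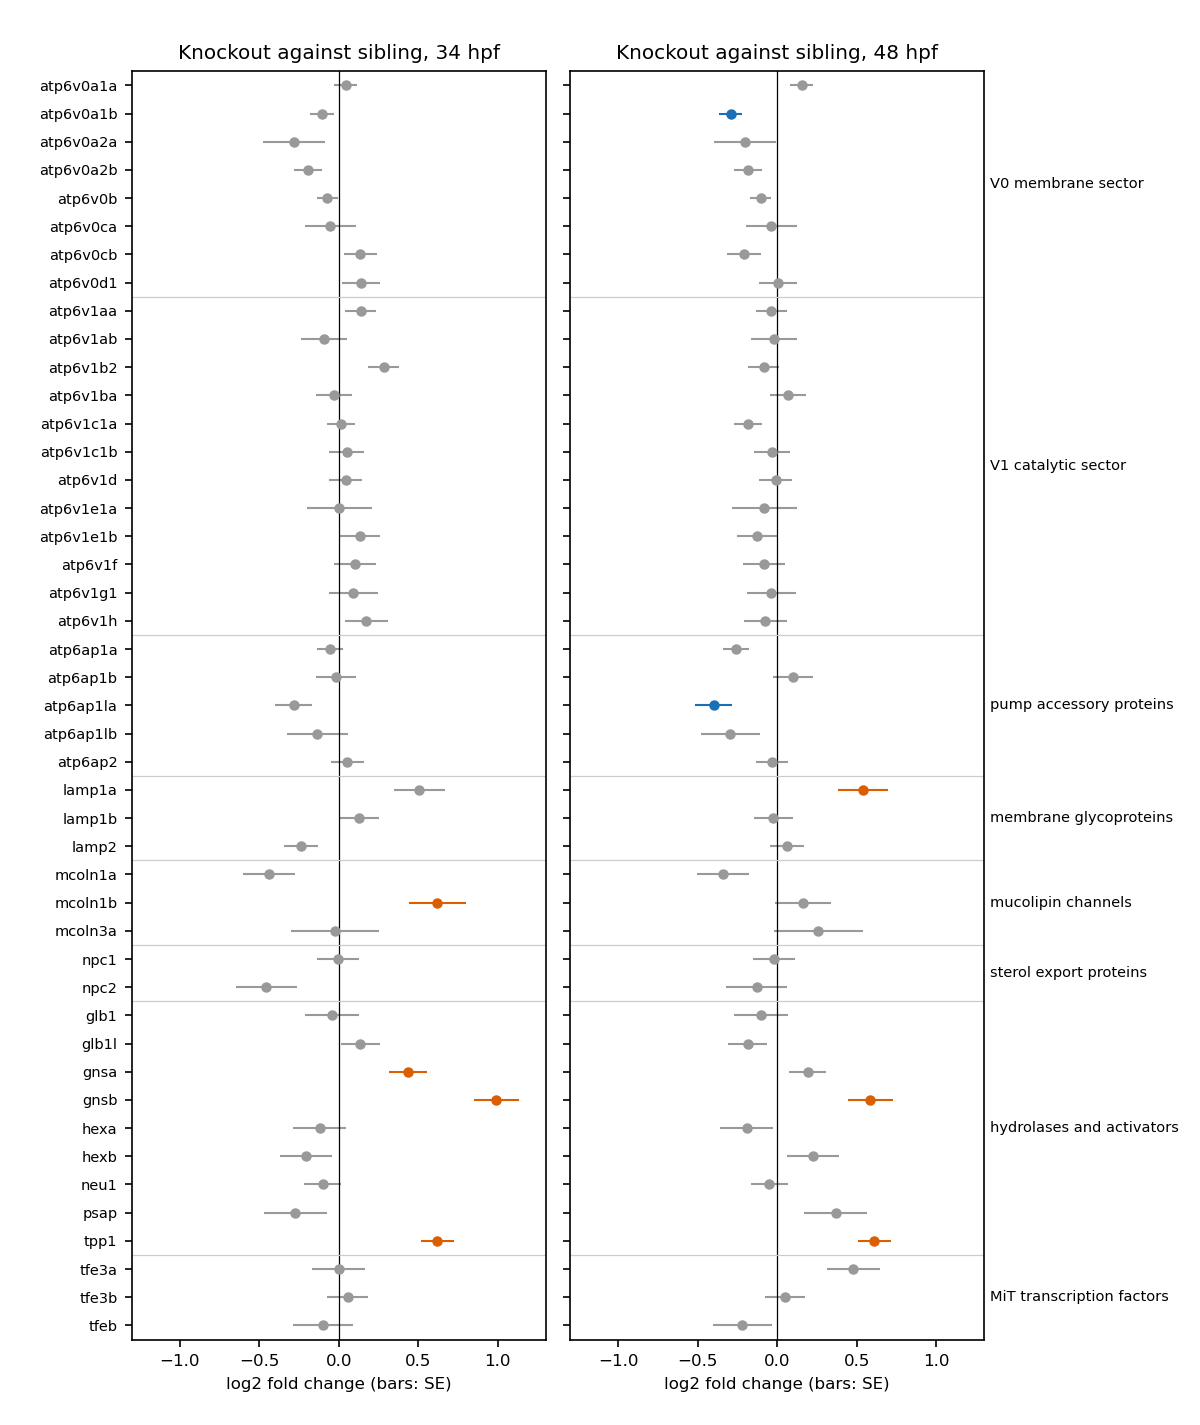
Log2 fold changes of the 45 lysosomal genes in hnf4a,hnf4b knockouts against siblings at 34 hpf (left) and 48 hpf (right), with bars for the standard error, grouped by role. Orange marks genes called higher and blue genes called lower in edgeR's quasi-likelihood test (adjusted p below 0.05). The 4 calls at 34 hpf are all higher, and at 48 hpf 3 are higher and 2 lower.

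Among the hydrolases, tpp1 rose by a like amount at both stages. It encodes tripeptidyl peptidase 1, which trims tripeptides from the ends of proteins in the lumen. In siblings at 34 hpf the 4 libraries held 47.5, 48.1, 36.0 and 38.7 CPM, and in knockouts 67.4, 73.7, 63.2 and 57.5 CPM. At 48 hpf the siblings held 32.9, 31.9, 35.2 and 31.7 CPM and the knockouts 49.3, 48.0, 56.2 and 47.5 CPM. Each knockout library lay above each sibling library of its stage, and the groups did not overlap. Its log2 fold change came to 0.62 ± 0.10 (SE) at the earlier stage (adjusted p = 0.00104) and 0.61 ± 0.10 at the later one (adjusted p = 0.00103). Its call held under every alternative run and without each single library, with the highest adjusted p at 0.0171.

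The gene gnsb stood highest over its siblings among the 45 at 34 hpf. It is 1 of a pair of copies of the gene for N-acetylglucosamine-6-sulfatase, which removes sulfate from heparan sulfate. Siblings held 60.8, 49.2, 55.5 and 58.6 CPM and knockouts 81.1, 126, 127 and 111 CPM at 34 hpf. The later siblings held 33.1, 34.3, 42.1 and 39.0 CPM and the later knockouts 45.7, 49.7, 64.7 and 62.5 CPM. The groups did not overlap at either stage, and knockout replicate 1 was the lowest of its group at both. Between the genotypes gnsb differed by 0.99 ± 0.14 log2 units at the earlier stage (adjusted p = 0.000284) and 0.58 ± 0.14 at the later one (adjusted p = 0.0138), and the difference between them was not called (-0.40 ± 0.20, adjusted p = 0.71). The call at 48 hpf was lost without sibling replicate 1 (adjusted p = 0.0608), sibling replicate 2 (0.0511) or knockout replicate 3 (0.0511).

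The copy gnsa changed less. Its levels at 34 hpf were 11.8, 14.1, 12.2 and 13.5 CPM in siblings and 13.5, 17.4, 17.8 and 21.1 CPM in knockouts. Knockout replicate 1 lay within the sibling range and the other 3 above it. Its log2 fold change of 0.44 ± 0.12 (adjusted p = 0.0264) was no longer called without sibling replicate 1 or 3 or without knockout replicate 2, 3 or 4 (adjusted p of 0.0537 to 0.0834), or when the 34 hpf libraries were fitted alone (0.12). The levels at 48 hpf were 18.04, 16.4, 18.4 and 17.0 CPM in siblings and 19.4, 21.7, 18.3 and 20.4 CPM in knockouts, a log2 fold change of 0.19 ± 0.12 (adjusted p = 0.349).

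The other 6 genes of this role were not called in either knockout comparison. They are psap, the precursor of the saposins that help lipid hydrolases, hexa and hexb for the subunits of beta-hexosaminidase, neu1 for a sialidase, glb1 for beta-galactosidase, and glb1l, named for its likeness to glb1. For psap siblings held 784, 720.3, 637 and 657 CPM at 34 hpf and knockouts 367, 714, 529 and 704 CPM. The later siblings and knockouts held 206, 269, 275 and 246 CPM and 229, 309.9, 445 and 302 CPM. The groups overlapped at both stages, with knockout replicate 1 lowest at 34 hpf and knockout replicate 3 highest at 48 hpf. The log2 fold changes were -0.27 ± 0.20 (adjusted p = 0.447) and 0.37 ± 0.20 (adjusted p = 0.278).

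**Figure D2:**
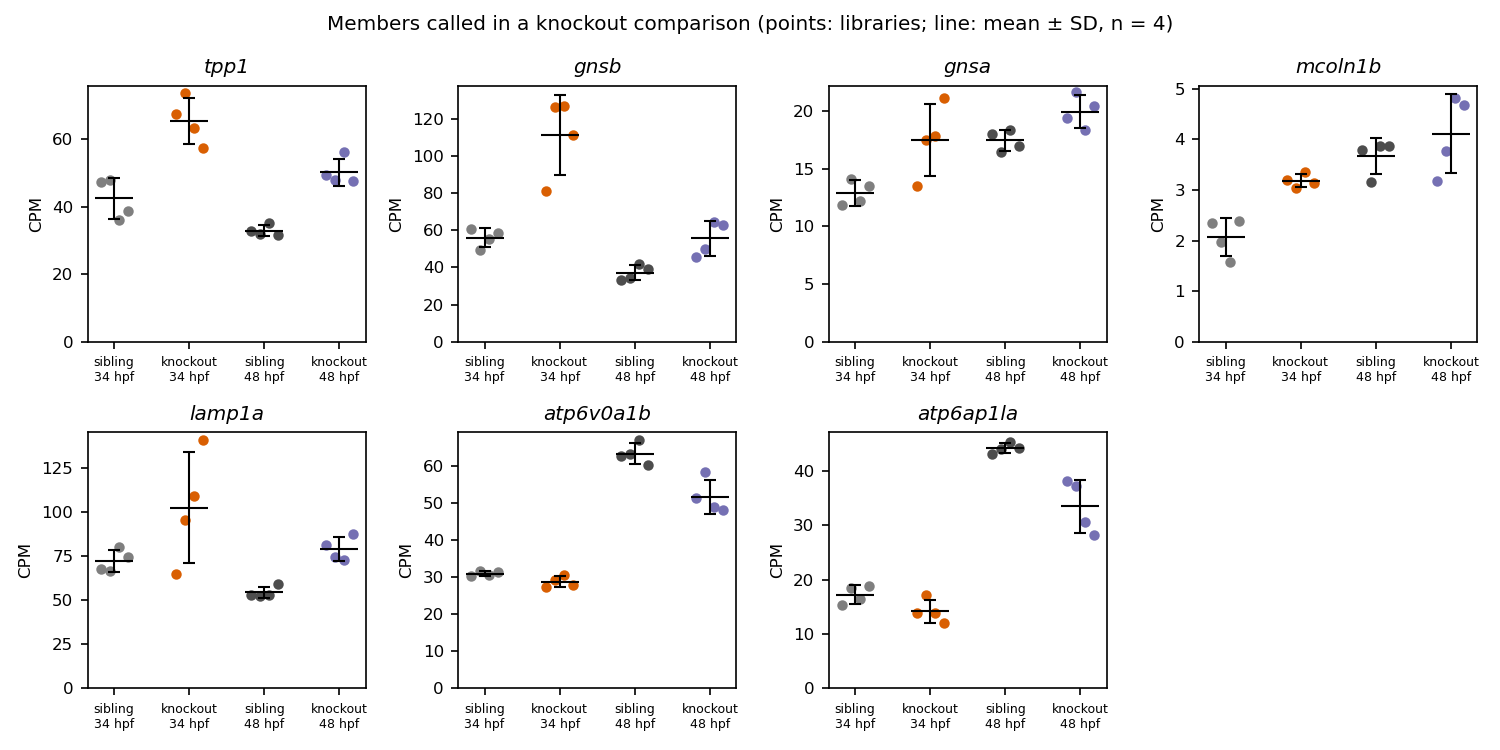
Levels in CPM of the 7 lysosomal genes called in at least 1 knockout comparison, in each of the 16 libraries (points), with the mean and SD of each group of 4. For tpp1 and gnsb the knockouts lie above the siblings of the same stage without overlap, while for gnsa the groups overlap at both stages and for mcoln1b at 48 hpf, and atp6v0a1b and atp6ap1la lie lower in knockouts at 48 hpf.

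Of the membrane glycoprotein genes only lamp1a was called, and in the edgeR fit only at 48 hpf. Lamp proteins line the inner face of the lysosomal membrane with sugar chains. Siblings at 48 hpf held 53.1, 52.4, 53.3 and 59.1 CPM of lamp1a and knockouts 81.3, 74.6, 73.1 and 87.5 CPM, without overlap. This was a log2 fold change of 0.54 ± 0.16 (adjusted p = 0.0400), which did not pass in any of the 8 fits that each left out 1 of the 8 libraries compared (adjusted p of 0.0536 to 0.113). At 34 hpf the levels were 67.5, 66.8, 80.4 and 74.4 CPM in siblings and 64.8, 95.6, 109.4 and 141 CPM in knockouts. Knockout replicate 1 lay below all 4 siblings and the other 3 above them. The log2 fold change there was 0.51 ± 0.16 (adjusted p = 0.0552), 0.51 in DESeq2 (adjusted p = 0.0204), 0.46 with the replicate block (adjusted p = 0.0359) and 0.67 without knockout replicate 1 (adjusted p = 0.00186). The difference between the stages was 0.03 ± 0.22 (adjusted p = 0.995).

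The mucolipin genes mcoln1a and mcoln1b, copies of the gene for the lysosomal calcium channel TRPML1, took opposite signs. For mcoln1b the siblings held 2.35, 1.98, 1.57 and 2.38 CPM at 34 hpf and the knockouts 3.2, 3.04, 3.36 and 3.14 CPM, without overlap. Its log2 fold change was 0.62 ± 0.18 (adjusted p = 0.0374). The call was lost in limma-voom (adjusted p = 0.0566), without a filter on low counts (0.0676), with the replicate block (0.0544), in the fit of the 34 hpf libraries alone (0.106) and without sibling replicate 2 or 3 or knockout replicate 1, 2 or 3 (0.0581 to 0.113). The later levels were 3.78, 3.15, 3.88 and 3.88 CPM in siblings and 3.18, 3.76, 4.82 and 4.68 CPM in knockouts, which overlapped (0.16 ± 0.17, adjusted p = 0.636). The copy mcoln1a was not called (at 34 hpf -0.44 ± 0.16 with adjusted p = 0.107, and later -0.34 ± 0.16 with adjusted p = 0.216), except with the replicate block at 34 hpf (-0.44, adjusted p = 0.0175) and with the 48 hpf libraries fitted alone (-0.33, adjusted p = 0.0413). The third channel gene, mcoln3a, was at -0.02 ± 0.28 and 0.26 ± 0.28.

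Neither gene of sterol export was called in the edgeR fit without a block, DESeq2 or limma-voom at either stage. At an unadjusted p below 0.05 only npc2 at 34 hpf passed, and the edgeR fit with the replicate block called it lower there. The levels of npc1 were 131, 118, 98.1 and 116 CPM in siblings and 85.2, 131, 127 and 118 CPM in knockouts at 34 hpf. The later groups held 84.2, 94.2, 86.5 and 105 CPM and 77.5, 87.1, 106 and 93.4 CPM. The groups overlapped at both stages, and the log2 fold changes were -0.0063 ± 0.13 with a 95% interval from -0.29 to 0.28, and -0.02 ± 0.13 with an interval from -0.31 to 0.27. The first of these changed sign in the fit with upper quartile scaling and in 3 of 8 fits without 1 library, staying uncalled.

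For npc2 the siblings at 34 hpf held 347, 326, 249 and 267 CPM and the knockouts 170.1, 280.1, 185 and 232 CPM. Knockout replicate 2, the highest of its group, lay above sibling replicates 3 and 4, so the groups overlapped, while the other 3 knockouts lay below all 4 siblings. The change was -0.46 ± 0.19 on the log2 scale (adjusted p = 0.152) and with the replicate block -0.47 (adjusted p = 0.0409). The later siblings held 120.4, 153, 147 and 102 CPM and knockouts 111, 119, 161 and 86.9 CPM, an overlap again (-0.13 ± 0.19, adjusted p = 0.747). RefSeq lists npc2 as another name of npc2.1, next to a copy npc2.2, so its reads may be shared with a near-identical gene.

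**Figure D3:**
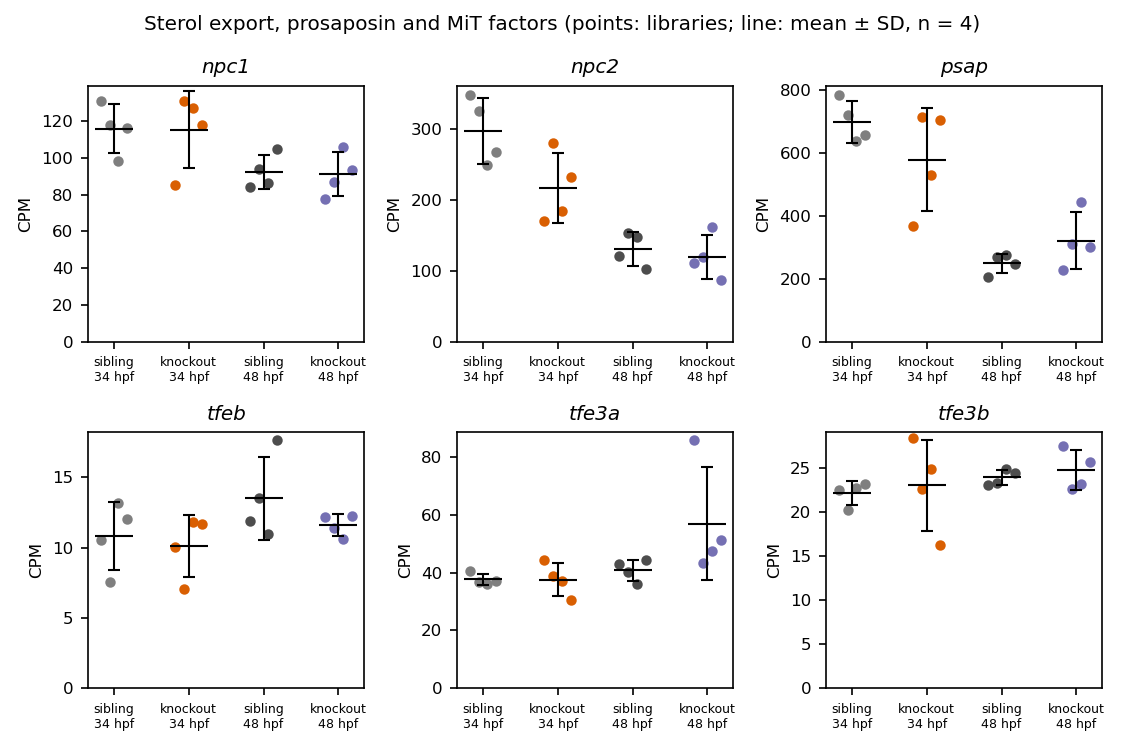
Levels in CPM of the sterol export genes npc1 and npc2, the saposin precursor gene psap and the MiT factor genes tfeb, tfe3a and tfe3b in each of the 16 libraries (points), with the mean and SD of each group of 4. Siblings and knockouts of the same stage overlap for npc1, npc2 and psap, while npc2 and psap are lower at 48 hpf than at 34 hpf in both genotypes.

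The 3 MiT factor genes were not called in the knockouts either, and only tfe3a at 48 hpf passed an unadjusted p of 0.05. Levels of tfeb were 10.6, 7.57, 13.2 and 12.1 CPM in siblings and 10.01, 7.04, 11.8 and 11.6 CPM in knockouts at 34 hpf, and 11.9, 13.5, 10.99 and 17.6 CPM against 12.2, 11.4, 10.6 and 12.2 CPM at 48 hpf. The groups overlapped, and the log2 fold changes were -0.10 ± 0.19 and -0.22 ± 0.19, with 95% intervals from -0.51 to 0.31 and from -0.62 to 0.19. For tfe3b siblings held 22.5, 20.3, 22.8 and 23.3 CPM at 34 hpf and knockouts 28.5, 22.7, 24.9 and 16.2 CPM, and at 48 hpf 23.1, 23.3, 25.0 and 24.4 against 27.6, 22.6, 23.2 and 25.7 CPM. Its log2 fold changes were 0.06 ± 0.13 and 0.05 ± 0.13.

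In the case of tfe3a a single library stood out. Siblings held 40.7, 36.8, 36.2 and 37.0 CPM at 34 hpf and knockouts 44.2, 38.7, 37.0 and 30.4 CPM (-0.0016 ± 0.17, adjusted p = 0.997). At 48 hpf siblings held 43.1, 40.1, 36.0 and 44.3 CPM and knockouts 85.7, 43.2, 47.6 and 51.2 CPM. Knockout replicate 1 was far above the other 3, of which replicate 2 lay within the sibling range. Its log2 fold change at 48 hpf was 0.48 ± 0.17 (adjusted p = 0.0846), 0.18 without knockout replicate 1 and 0.59 without knockout replicate 2 (adjusted p = 0.0363).

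Of the 25 genes for the proton pump and its accessory proteins, none was called at 34 hpf, beside 9.30% of all genes. At 48 hpf 2 of the 25 were called lower, beside 5.28% of all genes. At 34 hpf 1 V0 gene and 1 accessory gene were lower and 1 V1 gene higher at an unadjusted p below 0.05, and DESeq2, limma-voom and the replicate block called 0, while upper quartile scaling called the V1 gene atp6v1b2 higher (0.32, adjusted p = 0.0415). At 34 hpf the log2 fold changes of the 8 V0 genes ran from -0.28 to 0.14, those of the 12 V1 genes from -0.09 to 0.28 and those of the 5 accessory genes from -0.28 to 0.05. The 95% intervals of single V1 genes reached from -0.44 (atp6v1e1a) to 0.50 (atp6v1b2). At 48 hpf the ranges were -0.29 to 0.15, -0.18 to 0.07 and -0.40 to 0.10. There 11 of the 12 V1 genes had a negative sign, none of them called or past an unadjusted p of 0.05. At 34 hpf 10 of the 12 V1 genes had a positive sign, and signs of genes measured in the same libraries are not independent. The summed level of the V1 genes was 761, 717, 768 and 722 CPM in siblings and 635, 753, 715 and 991 CPM in knockouts at 34 hpf. Knockout replicate 4 was the highest of its group in all 12 V1 genes and replicate 1 the lowest in 10 of 12. Without knockout replicate 4, the V0 gene atp6v0ca was called lower (-0.31, adjusted p = 0.0452). Without replicate 1, the V1 gene atp6v1b2, for a nucleotide-binding subunit, was called higher (0.34, adjusted p = 0.0458).

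The 2 called pump genes were both higher at 48 than at 34 hpf in siblings. The 3 genes called higher in knockouts at 48 hpf had the opposite sign between the stages in siblings. These were tpp1 (-0.37), gnsb (-0.59) and lamp1a (-0.41, not called). The 2 comparisons share the siblings at 48 hpf, which by itself favours opposite signs, so the pattern was not tested. Of the genes called higher at 34 hpf, gnsa and mcoln1b rose between the stages in siblings (0.43 and 0.82). There the siblings at 34 hpf are shared, which favours like signs. For atp6v0a1b, a copy of the gene for an a subunit of V0, siblings at 48 hpf held 62.7, 63.2, 67.0 and 60.1 CPM and knockouts 51.3, 58.3, 48.8 and 48.1 CPM, without overlap. The difference was -0.29 ± 0.07 log2 units (adjusted p = 0.0178) and no longer passed without sibling replicate 3 (adjusted p = 0.0673), knockout replicate 3 (0.0606) or knockout replicate 4 (0.0629). At 34 hpf siblings held 30.2, 31.7, 30.5 and 31.3 CPM and knockouts 27.4, 29.3, 30.5 and 27.8 CPM (-0.11 ± 0.07, adjusted p = 0.428).

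For atp6ap1la, which is named for its likeness to pump accessory protein 1, siblings at 48 hpf held 43.2, 44.1, 45.4 and 44.2 CPM and knockouts 38.1, 37.2, 30.5 and 28.3 CPM, also without overlap. It differed by -0.40 ± 0.12 log2 units (adjusted p = 0.0353), and this was lost without sibling replicate 2, 3 or 4 or knockout replicate 3 or 4 (adjusted p of 0.0701 to 0.115). At 34 hpf the levels were 15.3, 18.5, 16.5 and 18.9 CPM in siblings and 13.8, 17.1, 13.8 and 12.1 CPM in knockouts (-0.28 ± 0.12, adjusted p = 0.149, and -0.40 with adjusted p = 0.0480 without knockout replicate 2). The accessory gene atp6ap1a, at -0.26 ± 0.08 at 48 hpf (adjusted p = 0.0512), was called lower in 4 of the 8 other settings.

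Markers of neurons and of proton-pumping ionocytes were counted beside the pump genes. Among 8 neuronal genes snap25b (-0.43 ± 0.13) and elavl4 (-0.32 ± 0.10) were called lower at 48 hpf, and the summed level of the 8 was 1883 to 2009 CPM in siblings and 1449 to 1757 CPM in knockouts. At 34 hpf none was called, and the sums were 972 to 1007 and 746 to 1012 CPM. The median log2 fold change of the 8 was 0.02 at 34 hpf and -0.31 at 48 hpf. The gene elavl3 was called at neither stage (-0.31 ± 0.12 and -0.33 ± 0.12), nor was snap25a (0.24 ± 0.09 and -0.02 ± 0.09). These calls of snap25b and elavl4 were lost in 4 and 6 of 8 fits without 1 library, and held in 7 and 4 of the 8 other settings. The part of neurons in the levels of atp6v0a1b and atp6ap1la was not tested. Markers of proton-pumping ionocytes summed to 304 to 326 CPM in siblings and 205 to 300.0 CPM in knockouts at 34 hpf, without a call among 7 tested. The lower sum came from ca2, with means of 265 and 190 CPM (-0.48 ± 0.17). Each of the other tested markers had a positive sign at 34 hpf, and the median log2 fold change of the 7 was 0.18. At 48 hpf the sums were 223 to 301 and 256 to 421 CPM, with 1 call (ca15a, a carbonic anhydrase, 0.63 ± 0.18, lost in 5 of 8 fits without 1 library).

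Markers of 4 further cell types were counted beside the hydrolase and glycoprotein genes. Those of macrophages summed to 41.9 to 59.1 CPM in siblings and 39.3 to 61.0 CPM in knockouts at 34 hpf, and to 49.0 to 58.2 and 47.6 to 58.8 CPM at 48 hpf, with 0 of 8 called at either stage. Pigment cell markers summed to 655 to 924 against 649 to 910 CPM and 728 to 866 against 673 to 829 CPM, with 0 of 7 called. The hatching gland, which secretes proteases, gave 2443 to 2913 CPM in siblings and 3104 to 3792 CPM in knockouts at 34 hpf, and 157 to 359 against 452 to 1335 CPM at 48 hpf. Of its 5 markers 0 were called at 34 hpf and 3 higher at 48 hpf (he1.1 1.57 ± 0.30, ctslb 2.2 ± 0.45 and he1.2 1.59 ± 0.41). Without knockout replicate 1 ctslb was at 1.26 and he1.2 at 0.85, and the call of he1.2 was lost there and without sibling replicate 2 or 3 (adjusted p of 0.0685 to 0.0996). The 2 genes listed as osteoclast markers, acp5a and ctsk, summed to 119 to 205 against 66.3 to 223 CPM and 27.8 to 34.3 against 36.5 to 60.95 CPM. At 48 hpf acp5a was called higher (1.44 ± 0.44, lost in 6 of 8 fits without 1 library), while ctsk was not called (0.14 ± 0.16). The part of cells with these markers in the levels of tpp1, gnsb, gnsa and lamp1a was not tested.

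The libraries of the groups compared did not overlap for 4 of the 45 genes at 34 hpf, namely gnsb, tpp1, mcoln1b and the V0 gene atp6v0a2b, beside 14.2% of all genes. At 48 hpf they did not overlap for 8, beside 19.2% of all genes: gnsb, tpp1, lamp1a, mcoln1a, atp6ap1a, atp6ap1la, atp6v0a1b and atp6v1c1a. Only 24 of the 45 genes had the same sign at both stages (53.3%), beside 69.7% of all genes, and over the 45 genes the 2 sets of log2 fold changes correlated with Pearson's r = 0.596 (Spearman's rho = 0.428), beside r = 0.656 over all genes. These are correlations across genes, which are not independent replicates, and the set of all genes was not matched to the 45 for level. The 2 genes called at both stages, gnsb and tpp1, make up 50% of the calls at 34 hpf and 40% of those at 48 hpf. Over all genes, those called with the same sign at both stages make up 48.1% and 44.6%, so the members lie near the background.

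How the same genes changed between the stages was compared next, within each genotype. In siblings 10 of the 45 rose from 34 to 48 hpf and 10 fell, beside 33.9% of all genes called (18.3% higher and 15.7% lower). In knockouts 7 rose and 8 fell, beside 27.7% (15.5% and 12.1%). The libraries of the stages did not overlap for 26 of the 45 genes in siblings, beside 40.4% of all genes, and for 11 in knockouts, beside 24.6%. Among the pump genes the accessory genes atp6ap1la, atp6ap1lb and atp6ap1a, the V0 genes atp6v0cb and atp6v0a1b and the V1 gene atp6v1b2 rose in both genotypes, while atp6v0a1a, atp6v0a2b and atp6ap1b fell in both. In knockouts the falls of atp6v0a1a and atp6ap1b (adjusted p = 0.0210 and 0.0443) held in 5 and 2 of 8 fits without 1 library. Each held in 6 of the 8 other settings, and for both the knockout libraries of the stages overlapped. Among the 9 hydrolase and activator genes 1 rose and 5 fell in siblings, and 4 fell in knockouts. The fall of neu1 in siblings (adjusted p = 0.0406) held in 0 of 8 fits without 1 library. The sibling calls of atp6v1c1a (higher) and lamp2 (lower) each held in 2 of 8. Summed markers of the hatching gland, given above, were also lower at 48 hpf, at 157 to 359 CPM in siblings where they had been at 2443 to 2913 CPM. The 2 genes listed as osteoclast markers summed to 27.8 to 34.3 CPM in siblings at 48 hpf and 119 to 205 CPM at 34 hpf. Only acp5a was lower there, with a sibling mean of 134 and then 7.36 CPM, while ctsk was at 23.9 and then 24.7 CPM. These 2 genes do not show whether osteoclasts were present. The part of hatching gland cells and of cells with acp5a in the falls of hydrolase genes, psap and npc2 was not tested.

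The 6 members with the smallest p in siblings were atp6v0a1b (1.03 ± 0.08), atp6ap1a (1.02 ± 0.08), atp6ap1la (1.36 ± 0.12), atp6v0cb (1.08 ± 0.11), atp6v1b2 (0.93 ± 0.10) and psap, which fell by 1.49 ± 0.20 on the log2 scale. Levels of atp6v0cb, a copy of the gene for the proteolipid ring subunit, were 56.4, 63.5, 63.4 and 63.0 CPM in siblings at 34 hpf and 125, 141, 135 and 121 CPM at 48 hpf. In knockouts they were 59.2, 63.1, 66.0 and 82.3 CPM and 116, 129, 108 and 98.2 CPM. Every library at 48 hpf lay above every library at 34 hpf. In the knockouts the 6 were atp6v0a1b (0.85 ± 0.07), atp6ap1la (1.24 ± 0.12), atp6ap1a (0.82 ± 0.08), atp6v0cb (0.74 ± 0.11), atp6ap1lb (1.11 ± 0.19) and gnsb, which fell by 0.999 ± 0.14.

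The level of atp6ap1a, the gene for accessory protein 1 of the pump, was 24.3, 23.6, 26.1 and 27.2 CPM in siblings at 34 hpf and 52.5, 53.6, 49.1 and 50.2 CPM at 48 hpf, and in knockouts 22.9 to 25.4 CPM and then 38.7 to 48.7 CPM. For atp6v1b2 the siblings moved from 28.1, 30.5, 27.7 and 28.3 CPM to 55.4, 54.5, 54.3 and 55.0 CPM, and the knockouts from 30.2, 34.0, 32.8 and 42.5 CPM to 54.7, 57.9, 46.4 and 47.8 CPM. Neither gene's stages overlapped in either genotype. The gene atp6ap1lb, a second one named for its likeness to accessory protein 1, stood at 3.34, 2.99, 2.92 and 3.93 CPM and later at 8.84, 8.76, 9.07 and 5.04 CPM in siblings, where it rose by 1.27 ± 0.19. In knockouts it moved from 2.58, 2.73, 3.18 and 3.50 CPM to 7.15, 7.24, 6.17 and 5.29 CPM.

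The sterol export gene npc2 fell between the stages in both genotypes, by 1.18 ± 0.19 in siblings (adjusted p = 0.000114) and by 0.86 ± 0.19 in knockouts (adjusted p = 0.00266). For npc1 the changes were -0.33 ± 0.13 (adjusted p = 0.0681) and -0.34 ± 0.13 (adjusted p = 0.0654), and DESeq2 called both (adjusted p = 0.0498 and 0.0332). With psap falling by 0.85 ± 0.20 in knockouts (adjusted p = 0.00388), the 2 genes psap and npc2 took the largest falls of siblings. Without them the summed level of the other 43 genes was 2149 to 2275 CPM in siblings at 34 hpf and 2195 to 2259 CPM at 48 hpf. The MiT gene tfe3a was called higher in knockouts (0.60 ± 0.17, adjusted p = 0.0135), at 0.34 without knockout replicate 1 of 48 hpf and not called with only the libraries compared (adjusted p = 0.0700), and was at 0.12 ± 0.17 in siblings.

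Markers of neurons rose between the stages, from 972 to 1007 CPM summed over the 8 genes in siblings at 34 hpf to 1883 to 2009 CPM at 48 hpf. In siblings 2 of 8 V0 genes, 3 of 12 V1 genes and 3 of 5 accessory genes rose, beside 18.3% of all genes. Of the others 2 V0 genes and 1 accessory gene fell, beside 15.7% of all genes, and the rest were not called. The part of neurons in the rises of single pump genes was not tested. The changes in siblings and in knockouts, which share no library, correlated with Pearson's r = 0.930 and Spearman's rho = 0.916 across the 45 genes. Over all genes, which were not matched to the 45 for level, r was 0.762. The sign was the same for 42 of the 45 genes (93.3%), beside 80.4% of all genes. The 13 genes called with the same sign in both make up 65% of the 20 calls in siblings and 86.7% of the 15 in knockouts. Over all genes these shares were 66.2% and 81.1%.

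**Figure D4:**
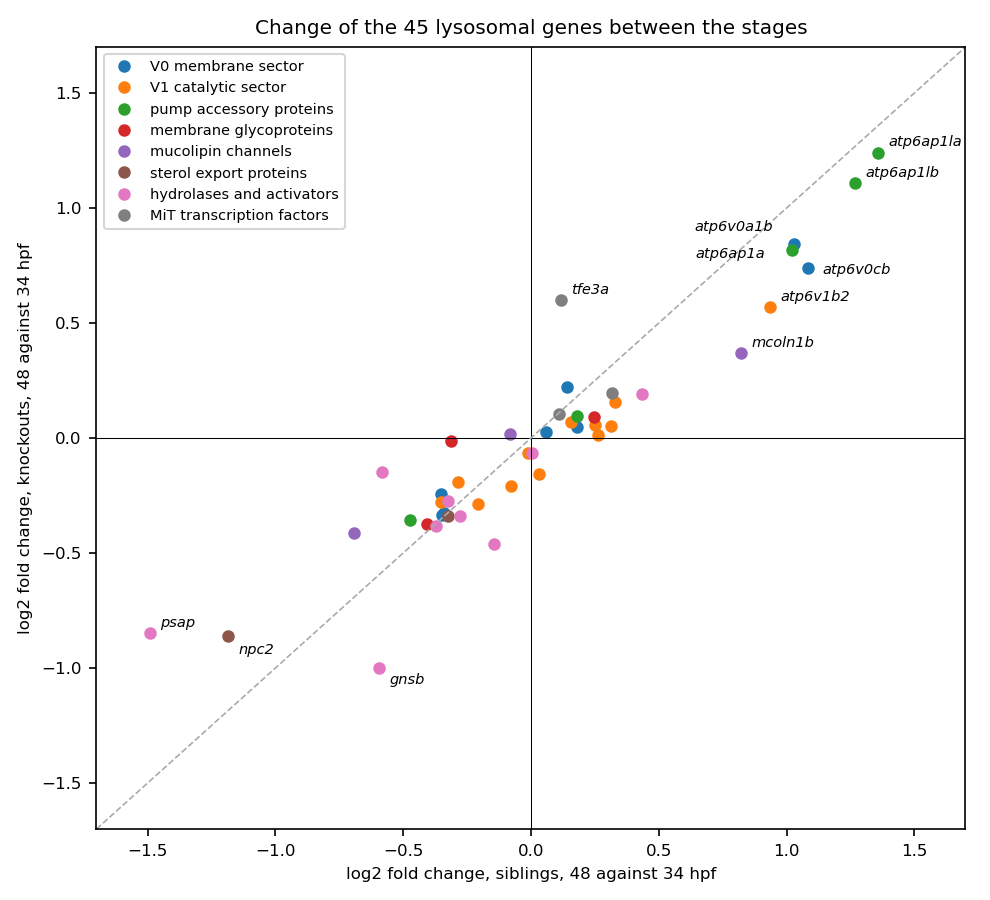
Log2 fold changes of the 45 lysosomal genes from 34 to 48 hpf in siblings (horizontal axis) and in knockouts (vertical axis), coloured by role, with the line of equal change dashed. The points follow the line (Pearson's r = 0.930 across the 45 genes), with the pump genes atp6ap1la, atp6ap1lb, atp6v0cb, atp6v0a1b and atp6ap1a at the upper right and psap, npc2 and gnsb at the lower left.

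Of the 45 genes 24 form 12 pairs of duplicated copies, and for each pair the share of its counts that fell to the first copy was taken, and followed across the libraries. Between the stages the copy atp6ap1a went from 29.2% ± 2.1 to 53.7% ± 1.8 of its pair in siblings (SD, n = 4) and from 29.0% ± 4.5 to 47.6% ± 5.9 in knockouts. The copy atp6v0a1a went from 63.4% ± 1.1 to 40.0% ± 1.6 in siblings and from 65.8% ± 2.3 to 47.6% ± 2.6 in knockouts. At 48 hpf its share was 38.7% to 42.3% in the sibling libraries and 44.9% to 51.2% in the knockout libraries, which did not overlap. The copy atp6v0ca went from 79.4% ± 1.2 to 59.0% ± 1.9 in siblings and from 76.5% ± 3.2 to 61.9% ± 2.7 in knockouts.

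In the pair of sulfatase genes gnsa held 18.8% ± 2.5 of the counts in siblings at 34 hpf and 13.7% ± 1.8 in knockouts, and 32.1% ± 2.3 and 26.7% ± 4.0 at 48 hpf. For lamp1a the share at 48 hpf was 58.1% to 62.5% in siblings and 65.9% to 74.6% in knockouts, and at 34 hpf 69.2% to 72.9% and 68.6% to 78.1%. That of tfe3a at 48 hpf was 59.0% to 65.1% in siblings and 65.6% to 75.6% in knockouts. The channel gene mcoln1a held 95.2% ± 1.2 and 90.5% ± 2.3 at 34 hpf, and 91.6% ± 1.0 and 88.5% ± 2.6 at 48 hpf. How reads that fit both copies were treated is not given in the sources used here, so the split of a pair is uncertain, and copies can differ in length.

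**Figure D5:**
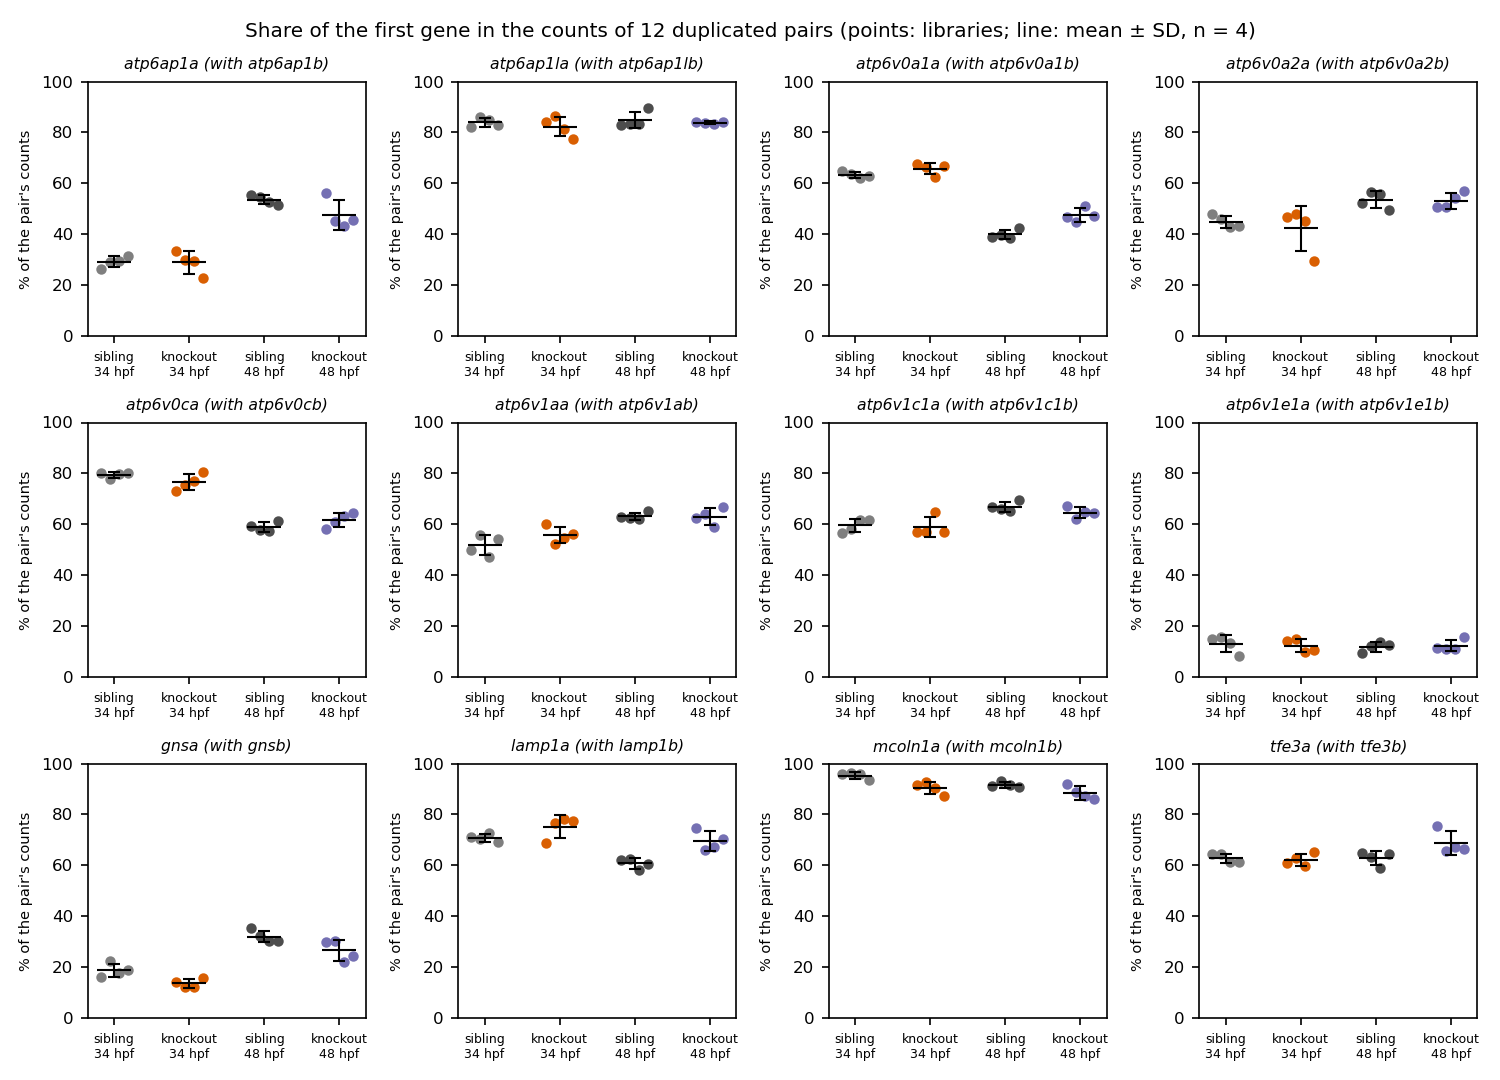
Share of the first-named copy in the summed counts of each of 12 duplicated pairs of lysosomal genes, in percent, for the 16 libraries (points) with the mean and SD of each group of 4. For atp6ap1a, atp6v0a1a, atp6v0ca and gnsa the stages are set apart in both genotypes. For atp6v0a1a, lamp1a and tfe3a the knockouts at 48 hpf lie above the siblings without overlap, for tfe3a narrowly (65.6% over 65.1%). The knockouts lie below the siblings without overlap for gnsa at both stages, narrowly at 48 hpf, and for mcoln1a at 34 hpf.

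Genes that work with the 45 were counted in 6 further lists, to be read beside the shares over all genes of 4.09% higher and 5.21% lower at 34 hpf and 4.76% and 5.28% at 48 hpf. Of 21 tested genes for assembly and regulation of the pump 1 was called higher at 34 hpf and 2 at 48 hpf, with 0 lower at either stage: rnaseka, an accessory factor of the pump, at 0.49 ± 0.13 and 0.41 ± 0.13, and the chloride-proton exchanger gene clcn5b at 0.47 ± 0.13 at 48 hpf. Both calls at 48 hpf were lost in at least 6 of 8 fits without 1 library, and that of rnaseka at 34 hpf in 3. Of 33 genes of lysosomal sterol and lipid handling 6 rose and 4 fell at 34 hpf and 6 rose and 3 fell at 48 hpf. They included the lysophospholipid exporter gene spns1 (-1.29 ± 0.15 and -0.75 ± 0.15), cln8 (-0.72 ± 0.09 at 34 hpf), gramd1ba for a carrier of sterol at the endoplasmic reticulum (0.68 ± 0.09 and 0.73 ± 0.09), and the lysosomal receptor genes scarb2c (0.62 ± 0.12 at 34 hpf) and scarb2a (0.90 ± 0.14 at 48 hpf). The cholesterol efflux gene abca1a was at 0.76 ± 0.16 at 48 hpf.

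Of 41 other hydrolase genes 5 rose and 4 fell at 34 hpf, and 9 rose and 1 fell at 48 hpf. The asparaginyl endopeptidase gene lgmn rose by 0.89 ± 0.10 and 0.65 ± 0.10, and the acid phosphatase gene acp2 by 0.72 ± 0.13 and 0.58 ± 0.13. At 34 hpf the cathepsin gene ctsc rose by 1.43 ± 0.25 and ctsh fell by 1.63 ± 0.25. At 48 hpf the fucosidase gene fuca1.1 rose by 0.69 ± 0.14 and the cathepsin gene ctsba by 1.31 ± 0.27. The difference between the stages was called higher for 2 genes of this list, ctss2.1 (2.51 ± 0.47) and ctsh (1.82 ± 0.35). Its median log2 fold change was 0.23 and 0.22, beside 0.014 and 0.00079 over all genes.

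Of 29 genes for lysosomal membrane and storage proteins, which include spns1 again, 1 rose and 3 fell at 34 hpf and 2 rose and 3 fell at 48 hpf. The membrane protein gene mfsd8 fell by 0.93 ± 0.13 and 1.16 ± 0.13, the sialic acid exporter gene slc17a5 fell by 1.66 ± 0.13 at 48 hpf (difference between the stages -1.60 ± 0.18, adjusted p = 0.000767), the cystine exporter gene ctns rose by 0.50 ± 0.12 at 34 hpf and cd63 by 0.48 ± 0.14 at 48 hpf. The phosphatase gene pip4p1b fell by 0.47 ± 0.11 at 34 hpf. The calls of cd63 and pip4p1b were lost in 5 and 2 of 8 fits without 1 library. Of 33 genes of nutrient sensing at the lysosome 5 rose and 1 fell at 34 hpf, and 2 rose at 48 hpf. The copies of the gene for the growth inhibitor Tsc1 went opposite ways at 34 hpf (tsc1b 0.53 ± 0.08, tsc1a -0.47 ± 0.09). Also higher were fnip1 (0.54 ± 0.11 and 0.38 ± 0.11) and, at 34 hpf, the MiT factor gene tfec (0.55 ± 0.11), while tsc1b was at 0.49 ± 0.08 at 48 hpf. The call of fnip1 at 48 hpf was lost in 6 of 8 fits without 1 library.

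Autophagy genes were called in 1 direction. Of 46 tested 12 rose and 0 fell at 34 hpf and 5 rose and 0 fell at 48 hpf, with a median log2 fold change of 0.23 and 0.14, beside 0.014 and 0.00079 over all genes. Their summed level was 1231 to 1319 CPM in siblings and 1394 to 1512 CPM in knockouts at 34 hpf, and 1381 to 1442 against 1491 to 1558 CPM at 48 hpf, without overlap. At 34 hpf they included wipi2 (0.40 ± 0.07), calcoco1a (0.65 ± 0.12), atg9a, for a scramblase of the forming autophagosome (0.79 ± 0.15), and the cargo receptor gene nbr1a (0.53 ± 0.12). At 48 hpf they included wipi2 (0.32 ± 0.07), nbr1a (0.40 ± 0.12), nbr1b (0.59 ± 0.13) and the cargo receptor gene sqstm1 (0.81 ± 0.22). The call of nbr1a at 48 hpf was lost in each of the 8 fits without 1 library and that of sqstm1 in 6 of 8.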

How the data were processed

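For 16 whole-embryo libraries the authors deposited a table of raw counts with 1 row per symbol. Per the labels' protocols, RNA was extracted with TRIzol and libraries were made with a VAHTS Universal V8 kit. Counting with featureCounts 2.0.6, alignment tool STAR 2.7.10b, build GRCz11, Trim Galore 0.6.10 and FastQC 0.12.1 are named, with no order, per the submitters' processing notes. The sources used here do not give the strand setting, the annotation or the treatment of reads with several alignments, so copies and antisense genes may share reads.

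Counts were scaled by TMM, filtered with filterByExpr (24084 genes tested) and fitted in 1 edgeR model of 4 groups (edgeR 4.0.16 in R 4.3.3, quasi-likelihood test), without a replicate block. Levels are CPM on TMM-scaled library sizes, errors of log2 fold changes are standard errors, and 95% intervals use 12 degrees of freedom. The fit was tested on simulated data, with 200 genes changed in each comparison over a wide range of levels. At 34 hpf it recovered 19.4% of 1.5-fold and 56.7% of 2-fold changes. At 48 hpf these were 23.9% and 70.1%, and for the difference between the stages 2.99% and 38.8%. A gene that was not called is therefore not shown to be unchanged. The simulated data gave 109 calls at 34 hpf and 125 at 48 hpf, beside 2240 and 2417 in the real data. With fewer calls the adjustment asks for a smaller p, so the recovered shares of these 2 comparisons may be too low for the members. For the difference the calls were 86 and 49, so this does not hold there. Shares over a wide range of levels also need not hold for the members. The members and lists were chosen with earlier results of these data known. Named were members called in a knockout comparison, npc1, npc2 and the 3 MiT genes, the 6 members of smallest p for each stage comparison, and up to 4 called genes of smallest p from each other list. Other members named in the text were chosen after their values were seen.

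Alternatives were DESeq2 1.42.0, limma-voom (limma 3.58.1), 2 other scalings, 2 other filters, only the libraries compared, each library left out and the replicate block. Deviations of same-numbered siblings and knockouts of a stage correlated at 0.155 to 0.430 in all 8 pairs over 24084 genes, above the minimum of 0.1. The replicate block therefore took the numbers to pair these libraries. Calls not marked otherwise come from the fit without the block, which does not use the pairing. The pairing comes from the repeat numbers of the labels, which do not say what they mark, and only 4 of the 8 correlations were the highest of their row. Between stages not all pairs passed. No libraries of a group agreed within sampling noise (smallest mean ratio to it 7.80). The result of 1 neuronal marker is not reported here.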

Additional observations from a re-analysis of the deposited data

Results flagged for a closer look

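Of 68 groups of 4 libraries examined over 17 named genes, 4 held a library far from its group, and chance gives about 1 in 20. The level of atp6ap1lb was 5.04 CPM in sibling replicate 4 at 48 hpf, where the other 3 lay at 8.76 to 9.07 CPM. In the same library lamp1a was at 59.1 CPM, where the others lay at 52.4 to 53.3 CPM. For atp6v0cb, sibling replicate 1 at 34 hpf was at 56.4 CPM and the others at 63.0 to 63.5 CPM. For mcoln1b, sibling replicate 2 at 48 hpf was at 3.15 CPM and the others at 3.78 to 3.88 CPM.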

How the results depend on the processing

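The counts of members called were recomputed under 8 other settings and without each library. At 34 hpf the 4 higher became 2 with only the libraries compared, 6 with upper quartile scaling (with lamp1a and atp6v1b2), 3 to 5 in the other settings and 2 to 5 without single libraries. None was lower at 34 hpf, against 2 with the replicate block (npc2 and mcoln1a) and 0 to 1 without single libraries. At 48 hpf the counts without single libraries were 1 to 3 higher and 0 to 3 lower, and the block changed no member's call there. The difference stayed at 0 in each fit. In siblings between stages 9 to 10 were higher and 8 to 10 lower without single libraries, 15 and 15 with only the libraries compared, and 10 and 14 in DESeq2. In knockouts between stages the 8 lower became 5 with only the libraries compared and 6 to 13 without single libraries, 13 without knockout replicate 1 of 34 hpf, and the 7 higher became 6 with only the libraries compared and 7 to 10 without single libraries. Between stages the repeat numbers are shared only in name, and with them as a block the counts were 9 higher and 12 lower in siblings and 7 and 9 in knockouts.

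Signs that changed belong to uncalled genes near 0. At 34 hpf npc1 was at 0.036 with upper quartile scaling and -0.083 to 0.108 without single libraries. There tfe3a was at 0.0034 with DESeq2 size factors, 0.043 with upper quartile scaling, 0.0033 in DESeq2, 0.0032 with a CPM filter and -0.096 to 0.088 without single libraries, tfeb at -0.24 to 0.030 and tfe3b at -0.069 to 0.19. At 48 hpf npc1 ranged from -0.10 to 0.045 and tfe3b from -0.039 to 0.091. Over all genes the calls at 34 hpf, 985 higher and 1255 lower, became 491 and 739 with only the libraries compared, and those of the difference, 21 and 28, became 80 and 97 in DESeq2. The causes were not tested.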

Other observations

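Symbols in upper case lay outside the rule, which is written in lower case, and 4 would have matched its letters. They were chosen here after their values were seen. The symbol NPC2 (1 of many), a further entry under the name of the sterol export protein, stood at 0.98, 1.17, 0.23 and 0.44 CPM in siblings and 0.14, 0.11, 0.05 and 0.05 CPM in knockouts at 34 hpf, without overlap. At 48 hpf it stood at 0.78, 1.82, 0.83 and 0.75 CPM and 0.05, 0.19, 0.90 and 0.09 CPM, with knockout replicate 3 among the siblings. Levels of LAMP5 were 1.15 to 1.75 CPM in siblings and 1.02 to 1.71 CPM in knockouts at 34 hpf, and 1.66 to 3.10 and 2.41 to 2.68 CPM at 48 hpf. GLB1L2 was at most 0.33 CPM in any library at 34 hpf and between 0.16 and 1.40 CPM at 48 hpf, and NPC1L1, named for its likeness to npc1, at most 0.74 CPM.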
